A study of Homo sapiens with 2 samples.

Results

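The mRNAs of the m6A writers and erasers were compared between an RNA immunoprecipitation (IP) and its input in Huh-7 cells. The set held 10 genes, taken from the table by symbol for their known role: the writer complex genes METTL3, METTL14, WTAP, VIRMA, RBM15, RBM15B, ZC3H13 and CBLL1 and the eraser genes FTO and ALKBH5. All 10 were among the 25556 genes of the deposited expression table. Huh-7 is an established human hepatocellular carcinoma line, here wild type and untreated. The series had 2 libraries, 1 IP and 1 input, made from 90% and 10% of the same lysate, so no difference below has a replicate check and no p-value was computed. The series design describes an antibody against SRSF7, a serine/arginine-rich splicing factor, whereas the sample protocol describes an antibody against YTHDF2, an m6A reader, used on poly(A) RNA, and the treatment label of the IP reads SPSF7. The libraries are therefore called the IP and the input, and which protein was precipitated is not settled by the labels or the files.

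N6-methyladenosine (m6A) is the most abundant internal modification of mRNA. METTL3 transfers the methyl group and METTL14 holds the RNA beside it. WTAP, VIRMA, ZC3H13, CBLL1, RBM15 and RBM15B form the regulatory part that keeps the pair in the nucleus and directs it to its sites. The dioxygenases FTO and ALKBH5 remove the mark, and reader proteins such as YTHDF2 bind it. The values here are amounts of the mRNAs that encode these proteins, not amounts of methylation.

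The IP held 5897293 and the input 2782045 reads assigned to genes. Levels are RPKM, reads scaled to the length of the merged exons and to the assigned reads of the library. Intervals in the text are exact 95% intervals of the read counts and cover counting error only. Of the 20 read counts of the 10 genes 14 were even, against 67.7% of all non-zero IP counts and 72.1% of input counts, so both mates of a read pair may have been counted. Intervals with the reads taken as pairs are therefore given where they change whether 1 lies inside. Hepatocyte markers were abundant, with AFP, the fetal plasma protein, at 1613 RPKM in the IP and 2814 RPKM in the input. Markers of other cell types were also present. The 4 immune markers summed to 17.7 RPKM in the IP and 24.3 RPKM in the input, much of it from CD68 (14.03 and 12.8 RPKM). CD68 shared 1765 of its 2163 exon bases with another gene, so its reads may in part not be its own, which was not tested. PTPRC (1.295 RPKM in the IP and 2.196 in the input), CD3E (0.893 and 2.97) and TYROBP (1.496 and 6.34) were lower. The 3 erythroid markers summed to 574 RPKM in the IP and 893 RPKM in the input. The beta-globin gene HBB had 467 RPKM in the IP and 738 RPKM in the input. It lay above the hepatocyte markers APOB (437 and 342 RPKM), TTR, TF and HNF4A in both libraries. It lay below AFP, APOA1 (1565 and 1251 RPKM) and ALB (655 and 944 RPKM) in both, and below SERPINA1 in the IP. The erythroid markers HBA1 (97.7 and 142 RPKM) and ALAS2 (8.86 and 13.3 RPKM) were lower than HBB. Of the endothelial markers, PECAM1 had 111 IP and 81 input reads (2.43 and 3.76 RPKM) and CDH5 had 2 and 0 reads. The fibroblast markers COL1A2 (1.08 RPKM in the IP and 1.03 in the input), PDGFRB (1.12 and 0.504) and COL1A1 (0.151 and 0.0798) were low. The planned markers VWF and DCN had no entry. The part of such RNA in the values below was not tested.

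The 10 mRNAs together took a larger share of reads in the IP than they did in the input. ZC3H13 alone supplied much of this share. They made up 0.133% of IP reads (interval 0.131 to 0.136%) and 0.06998% of input reads (0.0669 to 0.0732%). ZC3H13 gave 52.4% of the IP reads and 34.3% of the input reads of the set. Without ZC3H13, the other 9 genes made up 0.0636% of IP reads (0.0616 to 0.0656%) and 0.04597% of input reads (0.0435 to 0.0486%). Protein-coding genes as a whole also took a larger share of the IP reads. Scaling to their reads multiplies each ratio of IP to input by 0.763. The part of this shift in the shares of the set was not tested.

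Within the input, the mRNAs differed in their level per length. ZC3H13 (23.4 RPKM), WTAP (19.6 RPKM) and ALKBH5 (16.7 RPKM) were highest. The intervals of neighbours among them overlapped, but those of ZC3H13 (21.7 to 25.2) and ALKBH5 (14.2 to 19.4) did not. CBLL1 (9.21 RPKM), RBM15B (7.92), METTL14 (6.47), RBM15 (6.004), VIRMA (5.87) and METTL3 (4.84) followed, again with overlapping intervals between neighbours. The interval of CBLL1 (7.72 to 10.9) lay above those of VIRMA (5.04 to 6.81) and METTL3 (3.84 to 6.04). These level intervals take reads as independent. With reads taken as pairs they would be wider and more of them might overlap, which was not computed for levels. FTO was far below, at 0.437 RPKM (0.286 to 0.641). In the IP, ZC3H13 stood apart at 68.1 RPKM, with ALKBH5 next at 23.2 RPKM. RBM15B (16.9 RPKM) and WTAP (16.6 RPKM) were level with each other, VIRMA reached 12.3 RPKM, CBLL1 11.1 RPKM and RBM15 9.19 RPKM. METTL14 (6.89 RPKM) and METTL3 (6.36 RPKM) were the lowest writers in the IP. The level of ZC3H13 was 4.83 times that of METTL3 in the input and 10.7 times in the IP, and that of WTAP 4.05 times and 2.61 times.

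**Figure D1:**
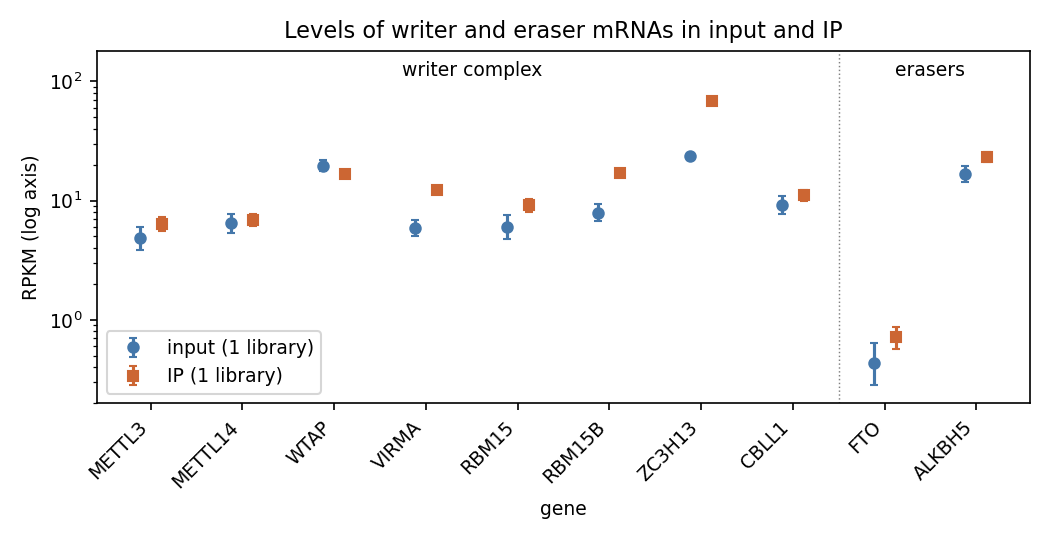
RPKM of each writer and eraser mRNA (log axis) in the input (circles) and the IP (squares), 1 library each, with exact 95% intervals from the read counts. ZC3H13 is highest in both libraries (23.4 and 68.1 RPKM), WTAP is lower in the IP, and FTO lies below 1 RPKM in both.

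Both genes of the catalytic pair had ratios above 1 on the deposited scale, with that of METTL14 close to 1. METTL3 (chromosome 14, positions 21498133 to 21511342, minus strand) had 220 IP and 79 input reads, or 6.36 and 4.84 RPKM. Its IP level was 1.31 times the input level (interval 1.01 to 1.72, or 0.906 to 1.94 with reads taken as pairs). METTL14 (chromosome 4, positions 118685392 to 118715433, plus strand) had 278 IP reads and 123 input reads, which gave a ratio of 1.07 (0.859 to 1.33). The partners did not differ in this respect beyond counting error: the quotient of their ratios, which does not depend on the scaling between the libraries, was 1.23 with an interval of 0.872 to 1.75. Neither gene carried a deposited peak.

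The regulatory subunits spread from below to well above their input level. ZC3H13, the zinc finger protein that anchors the complex in the nucleus (chromosome 13, positions 45954465 to 46052759, minus strand), had 4120 IP and 668 input reads. Its 68.1 RPKM in the IP were 2.91 times the 23.4 RPKM of the input (2.68 to 3.16), the highest ratio of the 10 genes, with an interval that overlapped no other. With reads taken as pairs, its interval (2.59 to 3.28) overlapped those of RBM15B, VIRMA and FTO. VIRMA, the large scaffold of the complex (chromosome 8, positions 94487689 to 94553529, minus strand), had 784 IP and 176 input reads, 12.3 against 5.87 RPKM and a ratio of 2.10 (1.78 to 2.49). WTAP, the adaptor that brings METTL3 and METTL14 to nuclear speckles (chromosome 6, positions 159725585 to 159756319, plus strand), had 629 IP and 350 input reads, 16.6 against 19.6 RPKM. Its ratio of 0.848 (0.743 to 0.969, or 0.702 to 1.03 with reads taken as pairs) was the lowest of the set and the only one below 1 on the deposited scale, and it became 2.03 when both libraries were scaled to the same RPKM sum. Relative to WTAP, ZC3H13 was 3.43 times higher in the IP than in the input (2.93 to 4.01) and VIRMA 2.48 times (2.00 to 3.08). ZC3H13 also exceeded VIRMA, by a quotient of 1.38 (1.15 to 1.67).

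The paralogous RNA-binding subunits RBM15 and RBM15B, which recruit the writer complex to transcripts, were both above their input level on the deposited scale. RBM15B (chromosome 3, positions 51391285 to 51397908, plus strand) had 660 IP and 146 input reads, 16.9 against 7.92 RPKM and a ratio of 2.13 (1.78 to 2.57). RBM15 (chromosome 1, positions 110338506 to 110346681, plus strand) had 253 IP and 78 input reads, 9.19 against 6.004 RPKM and a ratio of 1.53 (1.18 to 2.00). The quotient of both ratios was 1.39, with an interval of 1.01 to 1.92 for independent reads and 0.875 to 2.21 for reads as pairs, so a difference between the paralogs was not resolved at this depth. SPEN, the other large member of their protein family, lay at 2.64 times its input level (2.31 to 3.03) with 1406 IP and 251 input reads. SPEN carried 12 deposited peaks. CBLL1, the RING-finger subunit also known as HAKAI (chromosome 7, positions 107743949 to 107761667, plus strand), had 343 reads in the IP and 134 in the input, at a ratio of 1.21 (0.986 to 1.49). VIRMA exceeded CBLL1 by a quotient of 1.74 (1.33 to 2.27) and METTL3 by 1.60 (1.16 to 2.19).

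Both erasers had ratios above 1 on the deposited scale, at very different levels of expression. ALKBH5, the nuclear m6A demethylase (chromosome 17, positions 18183078 to 18209954, plus strand), had 492 IP and 167 input reads, 23.2 against 16.7 RPKM and a ratio of 1.39 (1.16 to 1.67). FTO, which also demethylates the cap-adjacent m6Am (chromosome 16, positions 53701692 to 54158512, plus strand), had 90 IP and 26 input reads. Its 0.714 RPKM in the IP and 0.437 RPKM in the input gave a ratio of 1.63 (1.05 to 2.63, or 0.866 to 3.30 with reads taken as pairs). FTO was the only gene of the set below a mean of 1 RPKM and was left out of the counts and medians over genes. Its merged exons, 21379 bases over 33 blocks with 1 block of 10180 bases, were the longest of the set, and a merged length above that of the mature mRNA lowers RPKM in both libraries alike. On this scale ALKBH5 was 32.5 times as abundant as FTO in the IP and 38.1 times in the input. The quotient of the ratios of FTO and ALKBH5 was 1.17 (0.723 to 1.96). That of ALKBH5 and METTL3 was 1.06 (0.764 to 1.46), and that of ALKBH5 and METTL14 was 1.30 (0.979 to 1.73). Each of these intervals included 1.

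**Figure D2:**
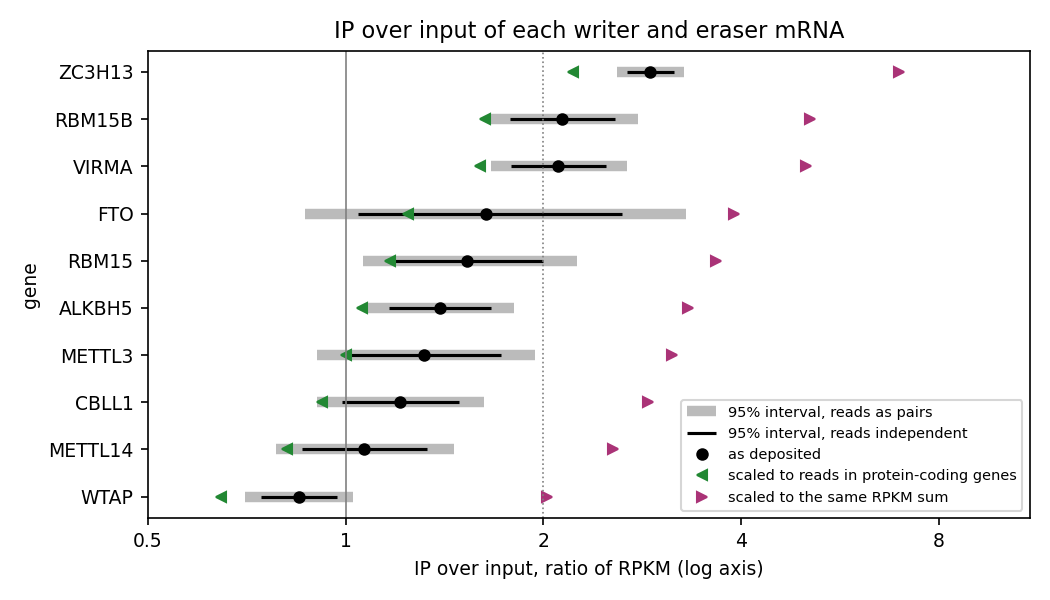
Ratio of IP to input RPKM of each gene (log axis), as deposited (black points, with 95% intervals for independent reads as black lines and for reads taken as pairs as grey bars) and with 2 other scalings (triangles). ZC3H13, RBM15B and VIRMA lie above 2 as deposited (2.91, 2.13 and 2.10), WTAP lies at 0.848, and either scaling moves all genes by 1 common factor.

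On the scale of log2(RPKM + 1), 2 of the 9 genes averaging 1 RPKM or more exceeded their input level by 2-fold, and 0 lay below it by that much. This scale understates the change of low genes. The higher ones were ZC3H13, with a log2 ratio of 1.501, and RBM15B, with 1.00. Of all 14057 genes past this filter, 11.3% were at least 2-fold higher and 8.25% at least 2-fold lower. VIRMA fell just short of 2-fold on this scale, at 0.96, although its plain ratio was above 2. By the plain ratio 3 of the 9 genes reached 2, against 17.7% of all genes, with genes without input reads counted as reaching it. The counting interval lay wholly above 1 for 6 of the 9 genes and wholly below 1 for WTAP, against 31.4% and 18.6% of all genes. With reads taken as pairs it lay above 1 for 5 genes, METTL3 no longer among them, and below 1 for 0. The shares of all genes with reads taken as pairs are not given, so this count only describes the set. The median log2 ratio of the 9 genes was 0.45 (order-statistic interval 0.08 to 1.00) and that of all genes 0.14. This interval is a description only, since the genes were chosen by role and are not independent replicates. ZC3H13 ranked above 95.6% of the genes, RBM15B above 88.8% and VIRMA above 87.5%. METTL3 ranked above 60.5%, METTL14 above 46.6% and WTAP above 30.5%.

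These directions depend on how the libraries are scaled to each other. With scaling to the reads in protein-coding genes METTL14 and CBLL1 were below 1 (0.813 and 0.921), METTL3 came to 1.00, ZC3H13 to 2.22, and 1 of the 9 genes was at least 2-fold higher on the log2 scale with 5.95% of all genes. With scaling to the same RPKM sum 8 of the 9 genes exceeded the input by 2-fold, and so did 57.4% of all genes. The order of the genes and the quotients between them are the same under each scaling.

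Exon length differed along with the ratios. The merged exons of ZC3H13 and VIRMA, at 10265 and 10775 bases, were longer than those of the other 7 genes past the filter, which ran from 3601 bases (ALKBH5) to 6838 bases (METTL14). Among the 1195 genes with exons of at least 10 kb, 14.1% reached 2-fold in favour of the IP and the median log2 ratio was 0.38. Across the 9719 protein-coding genes past the filter, length and log2 ratio had a Spearman correlation of 0.21, and across the 9 genes here one of 0.32, given as descriptions since genes are not independent replicates. METTL14, WTAP and RBM15B had exons of similar length (6838, 6413 and 6624 bases) and ratios of 1.07, 0.848 and 2.13. The part of length in the ratios was not tested.

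**Figure D3:**
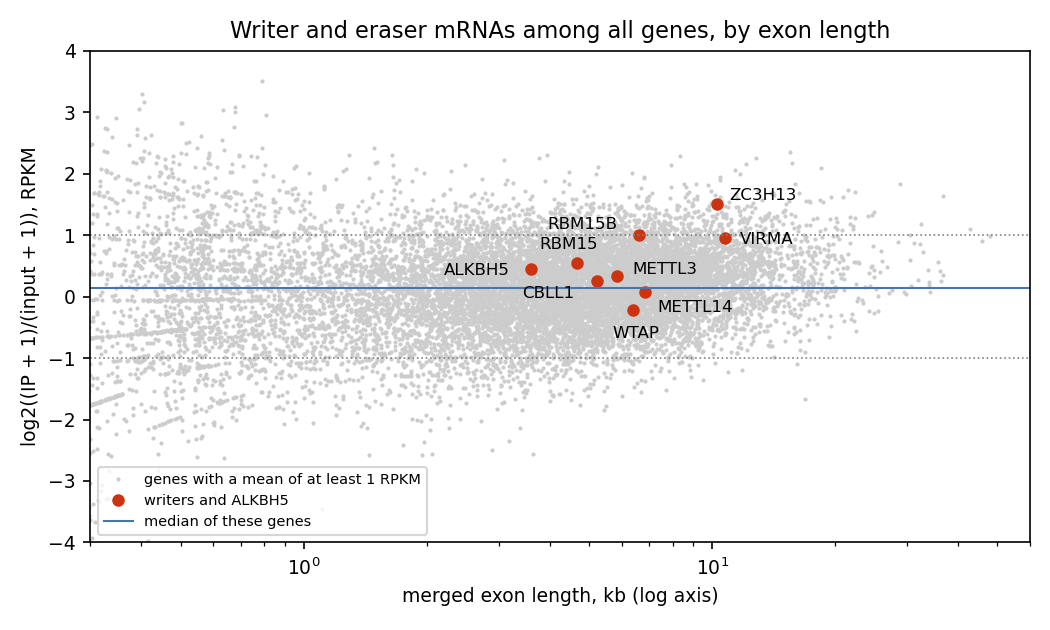
Log2 ratio of IP to input, log2((IP + 1)/(input + 1)) on RPKM, against merged exon length in kb (log axis) for genes averaging 1 RPKM or more (grey) and the 9 genes of the set that passed (red). The blue line is the median of all genes, dotted lines mark 2-fold, and 1014 genes outside the axes are not drawn. ZC3H13 and VIRMA are the longest of these 9 genes and lie at 1.501 and 0.96, while WTAP lies below the median line.

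Within the set, the deposited peaks fell on regulatory subunits of the writer complex. The authors' list of 7643 regions enriched in the IP held 13 on exons of the set, all on the gene's strand. They lay in 5 genes: 8 in ZC3H13, 2 in RBM15 and 1 each in RBM15B, VIRMA and CBLL1. WTAP was the regulatory subunit with none, and METTL3, METTL14, FTO and ALKBH5 had none either. A peak was present in 22.6% of all genes averaging 1 RPKM or more, in 42% of those that also had at least 100 IP reads, as all 9 genes here did, and in 55.6% of those with at least 10 kb of exons. The share of the 9 genes with a peak, 5 of 9, stands beside these shares and was not tested. Peak folds and p-values are the authors' own, and their scaling between the libraries is not stated in the labels or headers.

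In ZC3H13 the 8 peaks formed an almost unbroken run in the middle of the transcript. They covered 3008 of the 3476 exonic bases from position 2041 to position 5516 of the merged exons, counted from the 5′ end, or 86.5% of that run and 29.3% of all exonic bases. The run began in exon block 11 and ended in block 19 of 21, and left 19.9% of the exonic bases before it and 46.3% after it without a peak. Of the 7 gaps between neighbouring peaks, 6 were 24 or 49 exonic bases and 1 was 224, so the peaks are close to 1 continuous region and are not independent sites. In the authors' deposited table the folds ran from 2.16 to 2.76 and the p-values from 5.82e-21 to 0.00201. The peak with the smallest p (fold 2.76, chromosome 13, positions 45975337 to 45985378) covered 776 exonic bases in 3 exon blocks. The second smallest, 9.30e-18 (fold 2.74, positions 45967586 to 45968805), covered 501 exonic bases in blocks 16 and 17. All 8 folds were below the gene's own ratio of 2.91, which was the case for 20.8% of all deposited peaks. Of all genes past the filter, 0.896% carried at least 8 peaks.

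The other 5 peaks were separate regions in RBM15B, VIRMA, RBM15 and CBLL1. In the authors' deposited table RBM15B had 1 peak of 501 bases (chromosome 3, positions 51393609 to 51394109) with a fold of 8.77, the highest of the 13, and a p of 0.00133. It covered positions 2325 to 2825 of a gene listed as 1 exon of 6624 bases, and its fold was 4.11 times the ratio of the whole gene. The VIRMA peak (chromosome 8, positions 94527260 to 94529091) held 126 exonic bases in exon blocks 7 and 8, close to the 5′ end at positions 941 to 1066 of 10775, with a deposited fold of 2.31 and a p of 3.48e-07. Both RBM15 peaks lay in its first exon block of 4185 bases. The authors' table listed the first, of 51 bases (chromosome 1, positions 110339530 to 110339580), with a fold of 3.12 and a false discovery rate of 0.0477. The second, of 376 bases (positions 110341255 to 110341630), had a deposited fold of 2.15 and a rate of 0.0809. The 3 peak numbers between them were absent from the deposited list. The CBLL1 peak (chromosome 7, positions 107758856 to 107759231) covered 376 bases of the last and longest exon block, with a deposited fold of 2.23 and a false discovery rate of 0.0623. The false discovery rates of RBM15 and CBLL1 were thus the highest of the 5 genes in the authors' table.

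**Figure D4:**
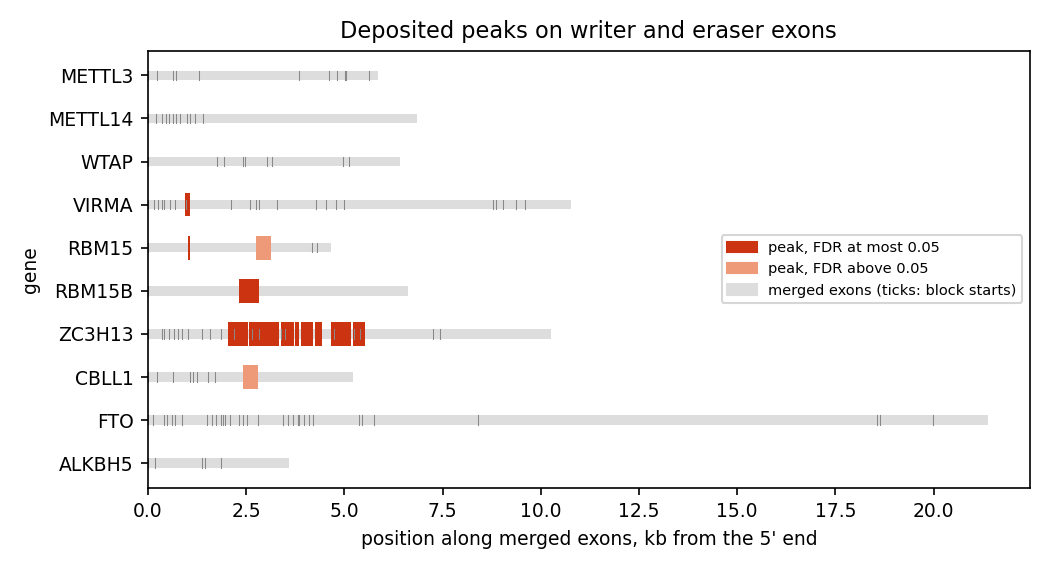
Deposited peaks on the merged exons of each gene, in kb from the 5′ end (grey bars, ticks at the start of each exon block), dark where the false discovery rate was at most 0.05 and light where it was above. The 8 ZC3H13 peaks run from position 2041 to 5516, and 5 genes carry no peak.

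No member shared exon bases with another gene on its own strand, but 7 did so with a gene on the opposite strand. The kit was a stranded one, and whether the strand was used in counting is not stated. The longest such stretch was in RBM15B, where 1325 bases (20.003% of its exons) also belong to DCAF1, a gene with 318 reads in the IP and 93 in the input and a ratio of 1.61. WTAP shared 437 bases with SOD2 (0.920 times its input level) and METTL3 388 bases with TOX4 (1.28 times). VIRMA, METTL14 and FTO shared none.

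The other genes of the pathway, in lists chosen by known role, lay on both sides of their input level. Of 13 m6A reader genes, 2 exceeded it by 2-fold and 0 lay that far below it, with a median log2 ratio of 0.27 (-0.26 to 0.85). Across all genes past the filter, 11.3% were at least 2-fold higher and 8.25% at least 2-fold lower, with a median of 0.14. A deposited peak was present in 7 of the 13 readers, with 22 peaks in all, and in 22.6% of all genes past the filter. PRRC2A, a proline-rich reader, lay at 3.71 times its input level (3.34 to 4.14) with 13 deposited peaks, and the nuclear reader YTHDC1 at 2.03 times (1.87 to 2.21). IGF2BP3 at 0.708 times (0.604 to 0.831) and RBMX at 0.650 times (0.590 to 0.715) were the lowest readers. YTHDF2 and SRSF7, the proteins of the antibody statements, had ratios of 1.23 (0.942 to 1.62) and 1.11 (0.977 to 1.26).

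Enzymes with related chemistry and methyl donor enzymes that passed the filter were within 2-fold on the scale of log2(RPKM + 1). The list of 6 further genes, N6-adenine methyltransferases and a cofactor, had a median of 0.10. It had 0 members past 2-fold in either direction and 0 peaks, beside 11.3% higher, 8.25% lower and 22.6% with a peak among all genes. The same shares stand beside the lists below. PCIF1, the cap-adjacent m6Am methyltransferase, was highest at 1.70 times (1.08 to 2.76, or 0.892 to 3.48 with reads taken as pairs) and TRMT112, the cofactor of METTL5, was at 1.42 times (1.13 to 1.78). The ribosomal RNA methyltransferases METTL5 and ZCCHC4 were at 0.810 times (0.698 to 0.942) and 0.660 times (0.491 to 0.891). With reads taken as pairs both intervals included 1 (0.655 to 1.01 and 0.432 to 1.02). For METTL16, which methylates U6 RNA and MAT2A mRNA, the ratio was 1.04 (0.724 to 1.502). Of 7 other AlkB dioxygenase genes 6 passed the filter, none past 2-fold, with a median of 0.21. They ran from ALKBH1 at 0.826 times (0.432 to 1.63) and ALKBH7 at 1.09 times (0.497 to 2.55) to ALKBH6 at 1.31 times (0.698 to 2.62) and ALKBH4 at 1.42 times (0.673 to 3.25), and each interval included 1. ALKBH3, which did not pass, had 24 IP and 0 input reads. Of 5 methyl donor genes 4 passed, with a median of -0.03. MAT2B, the regulatory subunit of the S-adenosylmethionine synthetase, was lowest at 0.445 times (0.342 to 0.578), and its log2 ratio of -0.99 lay just inside 2-fold. The catalytic subunit MAT2A was at 1.04 times (0.847 to 1.28) with 1 peak, AHCY at 0.923 times (0.797 to 1.07), also with 1 peak, and AHCYL1 at 1.13 times (0.968 to 1.32). The list medians shift with the scaling as those of all genes do.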

How the data were processed

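RNA of 1 IP and 1 input library of Huh-7 cells was analysed from a gene table and a peak table. Trimmomatic and STAR 2.5.3a are named in the submitters' processing notes. No header or label names the gene counter, annotation, peak caller or genome build. The gene values are RPKM deposited by the authors under a header without a unit. Value times length gives the same sum in both columns, and all values were whole multiples of 1 read within 0.01, which gave the reads. Gene length is that of the merged exons. Each deposited peak has, per the file headers, a fold (a ratio of at least 2 in every case), a score and 2 measures of error, the p-value and the false discovery rate (FDR), all computed by the authors from 1 IP and 1 input. Coordinates are those of the files. All 10 genes were in RefSeq's GRCh38.p14 table, used for gene classes, and 7 shared their start or end with it.

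The log2 ratio used a pseudocount of 1 RPKM and genes averaging 1 RPKM or more. Ratios of single genes used no pseudocount, with exact (Clopper-Pearson based) 95% intervals, and quotients of ratios used conditional exact intervals. The intervals cover counting error only. Pair intervals use each read count divided by 2. A peak was placed on a gene by at least 1 exonic base on its strand. Alternatives changed the pseudocount, filter, scaling, peak threshold and overlap. The named genes were all members, their peaks and the 2 highest and 2 lowest of each pathway list, with METTL16, MAT2A, SPEN, YTHDF2 and SRSF7 named for their roles. Members and lists were chosen with earlier results of these data known. With 1 library a group no test was fitted. The methods were tested on simulated data with independently drawn reads, and reads counted as pairs were not simulated. The table had 0 columns of other samples. Computation used scipy 1.17.1, pandas 2.3.3 and numpy 2.4.6 under Python 3.11.15, and plots used matplotlib 3.10.9.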

Additional observations from a re-analysis of the deposited data

How the results depend on the processing

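Of 32 alternative values of the 5 summary results, 25 stayed within 1.5 times the main count or inside the interval of the median. The number of genes at least 2-fold higher in the IP was 2 as deposited, with 11.3% of all genes. It was 1 after centring on the median of all genes (8.37% of all genes) and 1 when scaled to protein-coding reads (5.95%). It was 8 when both libraries had equal RPKM sums (57.4%). With a pseudocount of 0.1 it was 3 (16.9%), and also 3 with none (17.7%, with genes without input reads counted as higher). The median log2 ratio, 0.45, became 0.0805 with scaling to protein-coding reads and 1.65 with equal RPKM sums, where the medians of all genes were -0.16 and 1.14. With a peak fold of at least 4, 1 peak in 1 gene was left (RBM15B). With a false discovery rate of at most 0.05, 11 peaks in 4 genes were left. Of all 7643 deposited peaks, 3034 had a rate above 0.05. The shares of all genes with a peak under these stricter thresholds are not given, so these counts only describe the set. Filters on low values, genes that share exons, strand and overlap left the counts as they were. Each of the 3 scalings multiplies every ratio by 1 constant (0.908, 0.763 or 2.39), so a ratio past 2 could not turn below 1. METTL14 turned below 1 after centring (0.968), and METTL14 and CBLL1 did with protein-coding scaling (0.813 and 0.921). WTAP turned above 1 with equal RPKM sums (2.03). No paired analysis was possible because each group has 1 library. Depth limits FTO (26 input reads), RBM15 (78) and METTL3 (79) most.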
